A study of Mus musculus with 9 samples.

Results

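The genes described here encode the machinery that presents peptides on MHC molecules (called H2 in the mouse) in the kidney of mice with hyperuricemic nephropathy (HN). The 10 genes, H2-Aa, H2-Ab1, H2-Eb1, Cd74, Ciita, H2-K1, H2-D1, B2m, Tap1 and Psmb8, were taken by name from a table of 55385 mouse genes. All 10 of the 10 passed the filter of a mean count of at least 10 over the libraries, as did 20324 genes of the table.

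MHC class II molecules, built of an alpha and a beta chain, show peptides from engulfed protein to CD4 T cells and are found mainly on dendritic cells, macrophages and B cells, although injured tubular epithelium can also make them. MHC class I molecules, built of a heavy chain and beta-2 microglobulin, are carried by nearly all nucleated cells and show peptides cut by the proteasome and carried into the endoplasmic reticulum by the TAP transporter to CD8 T cells. Interferon gamma is known to raise the genes of both pathways.

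Kidney poly(A) RNA of male C57BL/6 mice (C57BL/6J in the methods of the study) was sequenced, with 3 mice in each of 3 groups and 1 library per mouse. The mice are described as 8 to 10 weeks old for the setting up of the model, and kidneys were collected at its end. Sex, age and the dosing schedule are those of the methods. Control mice (replicates 2, 4 and 5) were untreated. HN mice (replicates 4, 8 and 12) had received adenine at 0.16 g/kg and potassium oxonate at 2.4 g/kg every other day over 4 weeks, which raises uric acid and injures the tubules. PEC mice (replicates 1, 2 and 3) had received the same agents together with oral pectolinarigenin (PEC), a plant flavonoid, at 25 mg/kg daily, a dose stated in the methods of the study and not in the sample labels. The titles of the Control samples also carry the name of the HN model, but their disease state is given as control and they were used as such. The protocol for RNA speaks of an adipose type, while the tissue is labelled as kidney.

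Total counts on genes ranged from 57714111 to 81069646 per library, and the group medians were 75320528 (Control), 74315544 (HN) and 65583215 (PEC). The tissue label was checked with 8 kidney epithelial markers, whose FPKM (deposited values scaled to gene length and library size) summed to 2112, 2347 and 2081 in Control 2, 4 and 5, to 1962, 1747 and 1938 in HN 4, 8 and 12, and to 1968, 2089 and 1805 in PEC 1, 2 and 3. Umod, the uromodulin of the thick ascending limb, was the most abundant of them, and no marker was at 0. PEC 3 stood apart from the other PEC libraries in some of the 10 genes. It was at least 2 times the higher of PEC 1 and PEC 2 in 4 of the 10 genes, namely H2-K1 (3.25 times), H2-D1 (3.11 times), B2m (4.15 times) and Psmb8 (4.17 times), where 4.45% of all tested genes were. HN 8 was the highest of the HN libraries in all 10 genes, where by FPKM it was in 31.0% of all tested genes, but at least 2 times the higher of HN 4 and HN 12 in 0 of 10, where 2.01% of all tested genes were, and its largest such ratio was 1.77 for Psmb8. The comparisons are therefore given with and without PEC 3, and HN 8 was left out as well. Adipose markers (Adipoq, Plin1, Cidec and Lep) summed to 109 FPKM in PEC 3, against 0.22 in PEC 1, 0.16 in PEC 2, 8.91 in HN 12 and 4.01 in Control 2, and to at most 0.39 in the other libraries. Adipoq, the adiponectin gene, had the highest mean of the 4 over all libraries, owing to PEC 3 and HN 12, and none of the 4 was called in any comparison, and the part of these transcripts in the values of PEC 3 was not tested.

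**Figure D1:**
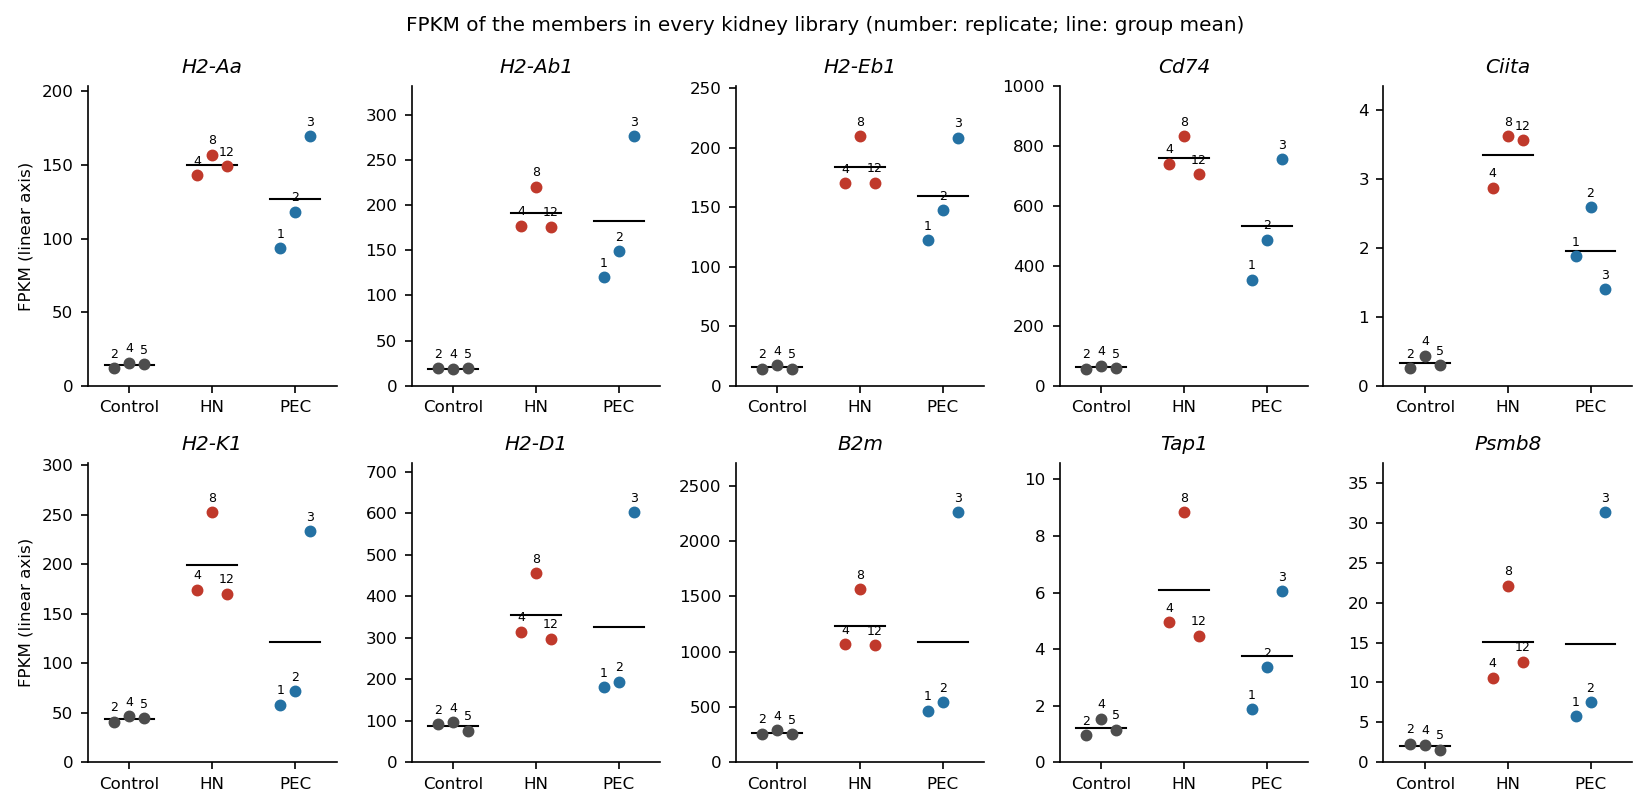
FPKM of the 10 genes in every library on linear axes, with a panel per gene, a point per mouse marked with its replicate number and a line at the group mean. Every HN and every PEC point lies above every Control point, an order found in 31.3% of all tested genes. PEC 3 is the highest PEC point in 9 panels, all but that of Ciita, and was so in 34.5% of all tested genes.

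The class II chains were low but present in Control kidneys and high in HN kidneys. H2-Aa (ENSMUSG00000036594, on chromosome 17 of GRCm38 from 34282744 to 34287823) encodes the alpha chain of I-A. It stood at 12, 15.7 and 14.9 FPKM in Control 2, 4 and 5, at 143, 157 and 149 in HN 4, 8 and 12, and at 93.4, 118 and 170 in PEC 1, 2 and 3. The HN and PEC values overlapped, with PEC 1 and PEC 2 below and PEC 3 above all HN mice, and both groups lay above Control. H2-Ab1 (ENSMUSG00000073421, from 34257689 to 34269419), which encodes the beta chain that pairs with it, stood at 19.4, 18.9 and 19.4 FPKM in Control, at 177, 220 and 176 in HN and at 121, 149 and 276 in PEC mice, each in the same order of replicates. H2-Eb1 (ENSMUSG00000060586, from 34305867 to 34316674) encodes the beta chain of I-E and stood at 14.3, 17.6 and 14.6 FPKM in Control, at 170.0, 210 and 171 in HN and at 122, 147 and 209 in PEC mice. PEC 3 lay above every HN mouse in H2-Ab1 and among them in H2-Eb1, while PEC 1 and PEC 2 stayed below them in both. C57BL/6 mice are known to make no I-E alpha chain, and H2-Ea-ps, the pseudogene of that chain, had a count of 0 in every library.

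The promoters of H2-Aa and H2-Eb1 are shown as those of an alpha and a beta chain. They are taken from RefSeq on GRCm38.p6, where a promoter was found for 7 of the 10 genes, and those shown run from base -180 to base -1 before the start of the gene. The H2-Aa stretch is chr17:34287824-34288003 on the minus strand, and the H2-Eb1 stretch is chr17:34305687-34305866 on the plus strand, where it overlaps an exon of the noncoding Gm20513. Capitals mark CCAAT, the letters bound by the factor NF-Y, which read ATTGG when they lie on the opposite strand. Capitals also mark TGACG, the core of sites bound by the factor CREB, which reads CGTCA when it lies on the opposite strand. Both motifs were chosen after the sequences had been seen, and among 32851 promoters of 180 bases 27.5% held CCAAT and 14.8% held TGACG on either strand.
H2-Aa: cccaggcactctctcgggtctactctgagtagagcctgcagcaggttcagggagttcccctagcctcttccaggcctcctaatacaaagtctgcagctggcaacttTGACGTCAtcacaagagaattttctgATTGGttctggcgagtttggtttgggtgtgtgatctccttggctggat
H2-Eb1: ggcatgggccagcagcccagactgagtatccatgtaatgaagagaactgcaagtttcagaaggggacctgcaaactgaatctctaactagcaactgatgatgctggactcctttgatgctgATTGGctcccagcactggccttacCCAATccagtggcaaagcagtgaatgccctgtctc
In H2-Aa, TGACG from base -74 overlapped CGTCA from base -71, and ATTGG began at base -48. In H2-Eb1, ATTGG began at base -59 and CCAAT at base -35. Of the 3 genes whose promoters are not shown, H2-D1 held all 4 motifs, Tap1 held TGACG alone and Psmb8 held none. A match of letters describes the sequence and does not show that a factor was bound.

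Cd74 (ENSMUSG00000024610, on chromosome 18) encodes the invariant chain, which fills the groove of class II molecules until a peptide is loaded. It was the most abundant of the 5 class II genes among the 10, at 57.5, 67.4 and 59.7 FPKM in Control 2, 4 and 5, at 741, 834 and 707 in HN 4, 8 and 12, and at 354, 488 and 755 in PEC 1, 2 and 3. PEC 3 alone lay among the HN values. Ciita (ENSMUSG00000022504, on chromosome 16 from 10480059 to 10526426) encodes the transactivator that class II genes need. It stood at 0.26, 0.44 and 0.30 FPKM in Control, at 2.87, 3.62 and 3.56 in HN and at 1.88, 2.59 and 1.40 in PEC mice. Ciita differed from the other 9 genes in that PEC 3 was the lowest PEC library, and on FPKM all PEC values lay below all HN values. On counts scaled by TMM (trimmed mean of M values, which sets aside the most changed genes) this last order did not hold, and 0 of the 10 genes had every PEC value below every HN value. Of all tested genes 29.6% had this order on TMM-scaled counts, and 39.5% had it on FPKM, where 1 of the 10 genes (Ciita) did. Dexi lies on the strand opposite to Ciita and shares 25888 bases of its span, with mean counts of 953 for Dexi and 1463 for Ciita, so that reads of the pair may be mixed if strand was not used in counting.

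The class I chains were already abundant in Control kidneys. H2-K1 (ENSMUSG00000061232, on chromosome 17 from 33996017 to 34000347), a classical heavy chain, stood at 41.2, 46.8 and 44.8 FPKM in Control 2, 4 and 5, at 174, 252 and 171 in HN 4, 8 and 12, and at 58.2, 71.8 and 234 in PEC 1, 2 and 3. PEC 1 and PEC 2 lay between the Control and HN mice and PEC 3 within the HN values. H2-D1 (ENSMUSG00000073411, from 35262730 to 35267499), the other classical heavy chain, stood at 92.3, 97.5 and 76.6 FPKM in Control, at 315, 456 and 298 in HN and at 181, 194 and 602 in PEC mice. B2m (ENSMUSG00000060802, on chromosome 2 from 122147686 to 122153083), the light chain shared by class I molecules, was the most abundant of the 10 genes, at 261, 290 and 257 FPKM in Control, at 1067, 1565 and 1059 in HN and at 469, 545 and 2258 in PEC mice. In H2-D1 and B2m the value of PEC 3 was above that of every HN mouse. The heavy chains resemble the H2-Q and H2-T genes in sequence, and since it is not known here how reads matching more than 1 gene were treated, the values of single class I chains are uncertain.

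The promoters of H2-K1 and B2m are shown as those of a heavy chain and of its light chain, again from RefSeq on GRCm38.p6. The H2-K1 stretch is chr17:34000348-34000527 on the minus strand. The B2m stretch is chr2:122147507-122147685 on the plus strand, which has 179 bases because the last base before the start used there belongs to an annotated exon of B2m. Capitals mark CCAAT and TGACG as before, TTTCNNTTC (GAANNGAAA on the other strand, N being any base), a short core of interferon response elements, and GGGATTCCC (GGGAATCCC on the other strand), letters bound by NF-kappaB. None of these motifs contains another. Among the same 32851 promoters 4.42% held the interferon core and 0.18% the NF-kappaB letters on either strand, and these motifs too were chosen after the sequences had been seen.
H2-K1: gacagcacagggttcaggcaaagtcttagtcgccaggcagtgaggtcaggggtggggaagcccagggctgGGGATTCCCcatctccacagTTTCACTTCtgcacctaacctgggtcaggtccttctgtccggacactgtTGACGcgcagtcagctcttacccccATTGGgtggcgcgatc
B2m: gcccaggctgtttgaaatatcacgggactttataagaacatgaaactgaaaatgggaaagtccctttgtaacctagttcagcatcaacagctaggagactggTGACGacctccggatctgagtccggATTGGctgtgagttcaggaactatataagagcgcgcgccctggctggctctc
In H2-K1, GGGATTCCC began at base -110, TTTCACTTC at base -90, TGACG at base -41 and ATTGG at base -16. In B2m, TGACG began at base -78 and ATTGG at base -53. The B2m stretch also holds gaaactgaaa, a longer interferon element that is not marked and whose share of all promoters is not given here.

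The supply of peptides was covered by Tap1 and Psmb8, which lie side by side on chromosome 17. Tap1 (ENSMUSG00000037321, from 34187553 to 34197225) encodes a subunit of the TAP transporter and stood at 0.97, 1.54 and 1.15 FPKM in Control 2, 4 and 5, at 4.95, 8.83 and 4.47 in HN 4, 8 and 12, and at 1.88, 3.37 and 6.05 in PEC 1, 2 and 3. PEC 3 lay among the HN values, and PEC 1 was nearer to the Control mice. Psmb8 (ENSMUSG00000024338, from 34197721 to 34201454) encodes a catalytic subunit of the immunoproteasome, which replaces Psmb5 of the constitutive proteasome. It stood at 2.34, 2.19 and 1.57 FPKM in Control, at 10.6, 22.1 and 12.6 in HN and at 5.76, 7.51 and 31.3 in PEC mice, so that PEC 3 was above every HN mouse. Tap1 and the immunoproteasome gene Psmb9 lie on opposite strands and overlap by 212 bases at their starts, with mean counts of 1631 for Tap1 and 911 for Psmb9. In all, 6 of the 10 genes were overlapped by another annotated gene, 5 of them on the opposite strand. Gm20513 against H2-Eb1 had a mean count of 7.33, and Patl2 against B2m and Gm20496 against Psmb8 had counts of 0.

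The comparison of HN with Control mice asks which genes change in the diseased kidney. All 10 genes were called higher in HN mice, where 18.3% of all tested genes were called higher and 15.7% lower. A call required a fold change of 1.5 or more together with an adjusted p (Benjamini-Hochberg, over all 20324 genes) of 0.05 or less, from the quasi-likelihood test of edgeR on the deposited counts with TMM scaling. The median log2 fold change was 2.56 over the 10 genes and -0.01 over all tested genes. The class II genes rose most. Cd74 went from 61.6 ± 5.22 FPKM (SD, n = 3) in Control to 760.4 ± 65.6 (SD, n = 3) in HN mice, with a log2 fold change of 3.09 (SE 0.25, edgeR adjusted p = 1.86e-05). H2-Eb1 rose by 3.03 (SE 0.20, edgeR adjusted p = 6.8e-06), H2-Aa by 2.86 (SE 0.21), H2-Ab1 by 2.77 (SE 0.28) and Ciita by 2.78 (SE 0.26), the latter 3 with edgeR adjusted p-values of 1.22e-05, 6.35e-05 and 3.72e-05. The class I genes rose by less. B2m went from 269 ± 17.9 FPKM in Control to 1230.0 ± 290 in HN mice (SD, n = 3 each), with a log2 fold change of 1.65 (SE 0.54, edgeR adjusted p = 0.0329). H2-K1 rose by 1.63 (SE 0.47, edgeR adjusted p = 0.0195) and H2-D1 by 1.47 (SE 0.43, edgeR adjusted p = 0.0213). Tap1 rose by 1.78 (SE 0.42, edgeR adjusted p = 0.0079), and Psmb8, from 2.03 ± 0.408 to 15.1 ± 6.14 FPKM (SD, n = 3 each), by 2.35 (SE 0.61, edgeR adjusted p = 0.0124). In whole tissue, more cells that carry these transcripts and more transcript per cell cannot be told apart. That class II rose more than class I was not tested as a difference.

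The calls of H2-K1, H2-D1 and B2m depended on single libraries. Without Control 2, 4 or 5 or HN 8, all 3 lost the call and 7 of the 10 genes remained called, with log2 fold changes of the 3 between 1.26 and 1.69. Of all tested genes 16.9%, 17.4%, 17.2% and 16.3% were called higher in these 4 fits. B2m also lost it without HN 4 (edgeR adjusted p = 0.0589) and without HN 12 (0.0528). Over all settings tried, the adjusted p ranged from 0.000102 to 0.0625 for H2-K1, from 0.000184 to 0.0707 for H2-D1 and from 7.5e-05 to 0.0945 for B2m. The spread used by the test was shared by all 9 libraries, PEC 3 included, and without PEC 3 the 3 adjusted p-values were 0.000102, 0.000184 and 7.5e-05, the lowest of these ranges. In a fit of the HN and Control libraries alone they were 0.000204, 0.000451 and 0.000182.

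**Figure D2:**
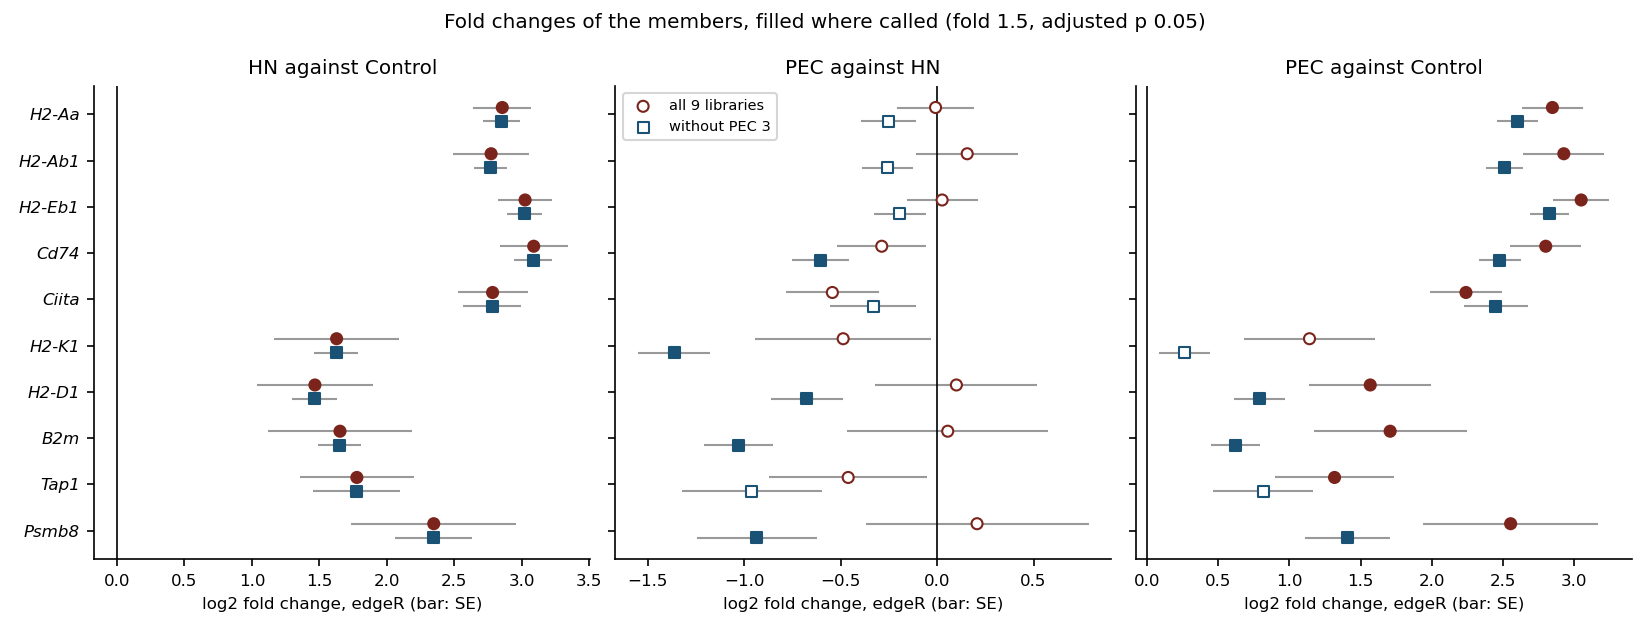
Log2 fold changes from edgeR with their standard errors for the 10 genes in the 3 comparisons, as circles for all 9 libraries and squares without PEC 3, filled where the gene was called. In HN against Control the fold changes barely differ between the symbols while their errors are smaller without PEC 3, whereas in PEC against HN 0 genes were called with all libraries and 5 without PEC 3.

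The comparison of PEC with HN mice asks what changes when PEC is given with the same agents. With all libraries, 0 of the 10 genes were called by edgeR, where 14.2% of all tested genes were called higher and 15.7% lower. The count was also 0 at an unadjusted p in place of the adjusted one, and 0 by DESeq2 and by limma on log2(FPKM + 1). The median log2 fold change was 0.01 over the 10 genes and -0.01 over all tested genes. H2-Aa had a log2 fold change of -0.01 (SE 0.20, edgeR adjusted p = 0.979), H2-Ab1 one of 0.16 (SE 0.26) and H2-Eb1 one of 0.03 (SE 0.18). The FPKM of B2m was 1230.0 ± 290 in HN (SD, n = 3) against 1090.0 ± 1012 in PEC mice (SD, n = 3), with a log2 fold change of 0.06 (SE 0.52, edgeR adjusted p = 0.942), and H2-D1 one of 0.10 (SE 0.42). The lowest values were those of Ciita at -0.54 (SE 0.24, edgeR adjusted p = 0.102), H2-K1 at -0.49 (SE 0.46), Tap1 at -0.46 (SE 0.41) and Cd74 at -0.29 (SE 0.23). Psmb8 had 0.21 (SE 0.58). These errors are wide, and a p above the threshold does not show that the groups were alike.

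This result rested on PEC 3. Without it, 5 of the 10 genes were called lower in PEC than in HN mice and 0 higher, where 15.3% of all tested genes were called lower and 13.6% higher, and the median log2 fold change was -0.64. H2-K1 fell by 1.36 (edgeR adjusted p = 0.00109), B2m by 1.03 (0.00297), Psmb8 by 0.93 (0.0445), H2-D1 by 0.68 (0.022) and Cd74 by 0.61 (0.0142). Over all settings the adjusted p ranged from 0.00109 to 0.805 for H2-K1, from 0.00274 to 1 for B2m, from 0.0445 to 0.998 for Psmb8, from 0.022 to 0.996 for H2-D1 and from 0.0142 to 0.818 for Cd74. Not called without PEC 3 were Tap1 at -0.96, Ciita at -0.33, H2-Ab1 at -0.26, H2-Aa at -0.25 and H2-Eb1 at -0.19. With HN 8 left out as well, 2 of the 10 genes were lower, H2-K1 at -1.16 and B2m at -0.82, where 13.1% of all tested genes were lower. PEC 3 was left out because it stood apart in these same genes, so that the calls without it describe the remaining libraries and are no independent test. Ciita was the only gene called elsewhere, lower at -0.80 without PEC 2 (edgeR adjusted p = 0.0272), at -0.76 with library sizes from total counts (0.0338), and at -0.72 (0.0473) and -0.76 (0.0391) with offsets for GC content, with a range from 0.0107 to 0.705 over all settings.

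The comparison of PEC with Control mice uses the PEC and Control libraries of the comparisons above and is not independent of them. In it, 9 of the 10 genes were called higher in PEC mice and 0 lower, where 19.7% of all tested genes were called higher and 18.1% lower, with a median log2 fold change of 2.4 over the 10 genes and 0.03 over all tested genes. H2-Eb1 was higher by 3.05 (edgeR adjusted p = 1.03e-05), H2-Ab1 by 2.93 (5.66e-05), H2-Aa by 2.85 (1.78e-05), Cd74 by 2.80 (3.76e-05) and Ciita by 2.24 (0.000128). Psmb8 was higher by 2.56 (edgeR adjusted p = 0.00785), B2m by 1.71 (0.0268), H2-D1 by 1.57 (0.0148) and Tap1 by 1.32 (0.0277). H2-K1 had a log2 fold change of 1.14 (SE 0.46, edgeR adjusted p = 0.0681) and was not called. Without PEC 3, 8 of the 10 genes were called, where 17.9% of all tested genes were called higher. The class II genes and Ciita then had log2 fold changes between 2.45 and 2.83, against 1.41 for Psmb8, 0.82 for Tap1 (not called), 0.79 for H2-D1, 0.62 for B2m and 0.26 for H2-K1 (not called). Control libraries mattered too, with 7 genes called without Control 2, 8 without Control 4 and 6 without Control 5, and 10 were called without PEC 1 or without PEC 2. Of all tested genes 18.1%, 18.4%, 18.3%, 18.0% and 19.0% were called higher in these 5 fits. Side by side, Cd74 was at 3.09 in HN and 2.80 in PEC against the shared Control mice, B2m at 1.65 and 1.71, and H2-K1 at 1.63 and 1.14.

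FPKM is scaled by library totals, while TMM also multiplies each total by a factor of its library, and these scalings did not give the same picture of PEC. With library sizes from total counts, the median log2 fold change of all tested genes was 0.55 in HN against Control, -0.22 in PEC against HN and 0.39 in PEC against Control. On FPKM, PEC 1 and PEC 2 were below every HN mouse in all 10 genes, as in 44.8% of all tested genes, but on TMM-scaled counts in 7, all but H2-Ab1, H2-Eb1 and Ciita, as in 34.7%. PEC 3 was above every HN mouse in 5 of the 10 on FPKM (28.7% of all tested genes) and in 8 on TMM-scaled counts (39.8%). Every HN and every PEC mouse was above every Control mouse in 10 of 10 genes on both scales, an order found in 31.3% of all tested genes on FPKM and in 17.1% on TMM-scaled counts. Mitochondrial genes took 13.3%, 12.9% and 16.3% of the counts in Control 2, 4 and 5, 6.01%, 6.22% and 6.34% in HN 4, 8 and 12, and 13.0%, 10.3% and 13.7% in PEC 1, 2 and 3, and their part in the scaling was not tested.

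Ratios within a library do not depend on its scaling, and each was compared with a two-sided exact permutation test, which cannot give a p under 0.1 with 3 mice against 3. Psmb8 over Psmb5, the subunit it replaces, was 0.0157, 0.0158 and 0.0136 in Control 2, 4 and 5, 0.0752, 0.162 and 0.0929 in HN 4, 8 and 12, and 0.0527, 0.0754 and 0.34 in PEC 1, 2 and 3. HN mice lay above Control mice without overlap (exact permutation p = 0.1), and PEC overlapped HN mice (p = 0.9), with PEC 3 the highest of all 9. The other replaced pairs, Psmb9 over Psmb6 and Psmb10 over Psmb7, were likewise higher in HN than in Control mice without overlap (exact permutation p = 0.1 each) and overlapped between PEC and HN mice (p = 0.2 and 0.4). H2-K1 over B2m was 0.158, 0.161 and 0.174 in the Control group, 0.163, 0.161 and 0.161 in the HN group and 0.124, 0.132 and 0.103 in the PEC group. The heavy chain and the light chain thus kept to between 0.158 and 0.174 in Control and HN mice (exact permutation p = 0.8), while all PEC values were lower (p = 0.1 against HN), PEC 3 included. The genes differ in length (3278 and 961 bases) and in GC content, and the size of this difference depends on whether either is corrected for. In PEC against HN mice H2-K1 and B2m had log2 fold changes of -0.49 and 0.06 by edgeR, of -0.52 and -0.32 with length offsets and of -0.70 and 0.45 with GC offsets, none of them called.

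Class II transcripts were also set against Ptprc, which encodes CD45 on all leukocytes. Ptprc stood at 0.52, 0.72 and 0.54 FPKM in Control 2, 4 and 5, at 4.98, 5.4 and 3.88 in HN 4, 8 and 12, and at 0.72, 2.01 and 0.81 in PEC 1, 2 and 3. H2-Ab1 over Ptprc was 37.2, 26.2 and 35.9 in the Control group, 35.6, 40.8 and 45.4 in the HN group and 167, 74.1 and 341 in the PEC group. Control and HN mice overlapped in this ratio (exact permutation p = 0.3), whereas every PEC value was above every HN value (p = 0.1). Cd74 over Ptprc was 111, 93.7 and 111 in the Control group, 149, 154 and 182 in the HN group and 491, 243 and 933 in the PEC group, with no overlap between any of the groups (exact permutation p = 0.1 each). Ptprc itself was lower in PEC than in HN mice, with a log2 fold change of -1.78 (edgeR adjusted p = 0.00471). The length behind its FPKM is 20389 bases, against 2872 for H2-Ab1 and 1875 for Cd74. Across the 20324 tested genes, which are not independent of each other, the log2 fold change of PEC against HN had a Spearman rho of -0.30 with gene length and 0.18 with GC content, against 0.09 and 0.04 for HN against Control. With offsets for gene length the log2 fold change of Ptprc was -1.20, and -1.24 where TMM scaling was kept beside them, both called lower. The length and GC offsets named here and below replace TMM scaling as well, unless it is said to be kept, and by themselves move the median of all tested genes in HN against Control mice to -0.22 and -0.21.

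**Figure D3:**
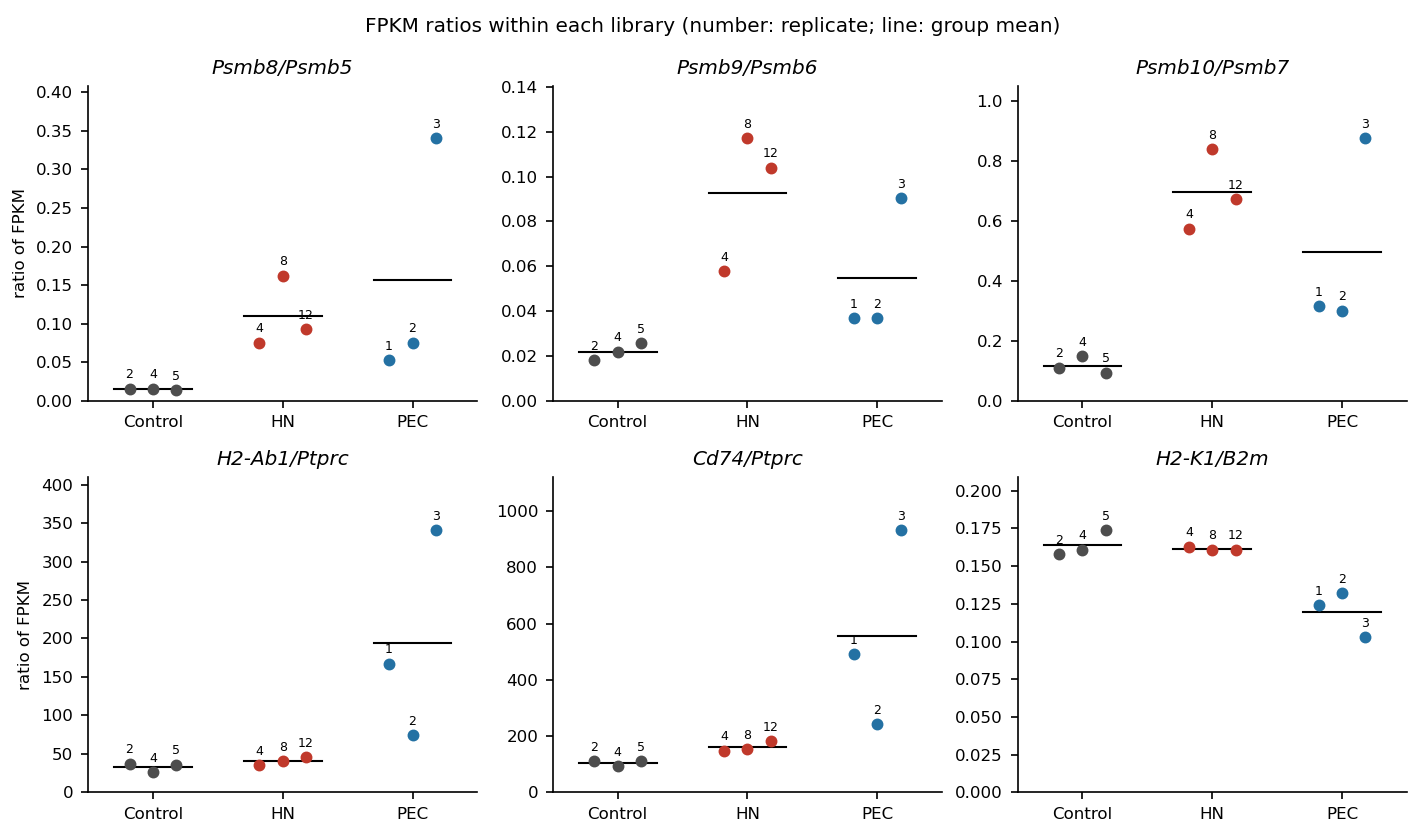
Ratios of FPKM between a pair of genes in the same library, with a panel per ratio on a linear axis, a point per mouse marked with its replicate number and a line at the group mean. The proteasome ratios are higher in HN than in Control mice, the ratios to Ptprc are highest in PEC mice, and H2-K1 over B2m is lowest in PEC mice.

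The other genes of presentation were counted from lists of class II chains, class II loading, class II transcription, class I chains, class I loading, class I transcription and the immunoproteasome. Without the 10 genes these held 53 names, of which 51 were in the table and 49 were tested. In HN against Control mice 28 of the 49 were called higher and 1 lower (Fcgrt, the neonatal Fc receptor, at -0.88), with a median log2 fold change of 1.29, where 18.3% of all tested genes were higher and 15.7% lower. In PEC against HN mice 2 were higher and 5 lower, with a median of -0.07, where 14.2% of all tested genes were higher and 15.7% lower. Without PEC 3 these were 2 and 13, beside 13.6% and 15.3% of all tested genes. Without HN 8 they were 3 and 3, in a fit whose shares of all tested genes are not given here. Against Control, PEC mice had 26 higher and 0 lower by edgeR with TMM scaling and no offsets, beside 19.7% and 18.1% of all tested genes. The median was 1.29. Of the 49, 2 were lower with GC offsets and 3 with length offsets, beside 4702 and 4482 of all tested genes.

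Among the genes of class II loading, 10 of 12 were higher in HN than in Control mice, Cd74 counted in, beside 18.3% of all tested genes. Ctss, the protease that degrades the invariant chain, stood at 9.79, 12.6 and 9.80 FPKM in Control 2, 4 and 5, at 225, 288 and 189 in HN 4, 8 and 12, and at 65.5, 87.1 and 147 in PEC 1, 2 and 3. It rose by 3.91 in HN against Control (edgeR adjusted p = 1.66e-05) and fell by 1.00 in PEC against HN mice (edgeR adjusted p = 0.0185), without overlap of the groups, but without HN 8 the latter value was -0.84 and not called. H2-DMb2, a chain of the peptide exchanger H2-DM, rose by 3.89 in HN mice, and March1, a ubiquitin ligase that removes class II from the surface, rose by 1.36 and was lower in PEC against HN mice at -1.24. Of 8 genes of class II transcription, 1 was called higher in HN mice, which is Ciita, beside 18.3% of all tested genes. The other 7 lay between -0.47 for Nfyc (edgeR adjusted p = 0.00397, under the fold required) and 0.80 for Creb1 (edgeR adjusted p = 0.375), with Rfxank at -0.33 and Nfya at 0.38. Nfyc was called lower with length offsets (-0.68) and with GC offsets (-0.64), and Rfxank with length offsets (-0.60), but neither with length offsets and TMM scaling kept (-0.49 and -0.40). Higher in PEC against HN mice were 2 of the 8, beside 14.2% of all tested genes, Nfyc by 0.99 and Rfxank by 0.66, and Rfxank was not called with GC offsets (0.47).

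Of 18 tested class I chains, H2-K1, H2-D1 and B2m included, 11 were called higher and 1 lower in HN mice, beside 18.3% and 15.7% of all tested genes. The higher ones were 6 without HN 8 (16.3% of all tested genes) and 14 without PEC 3 (3797 of all 20324 tested genes). The largest rise was that of H2-M2 at 5.78, from at most 0.03 FPKM in Control to 1.09, 2.43 and 1.62 in HN 4, 8 and 12. H2-Q4, H2-Q7 and H2-M3 rose by 1.68, 1.52 and 2.0, while H2-T22 at -0.41 and H2-T23 at 0.39 were not called. Without HN 8, H2-Q4 at 1.41 and H2-Q7 at 1.23 lost the call. PEC mice had 1 of the 18 lower than HN mice (H2-Q2 at -0.79, not called without HN 8 at -0.68) and 0 were higher, beside 15.7% and 14.2% of all tested genes. Without PEC 3 the lower ones were 9, beside 15.3% of all tested genes. They were 3 with length offsets and 2 with GC offsets, in fits whose shares of all tested genes are not given here. Class I loading had 5 of 8 genes higher in HN against Control mice, beside 18.3% of all tested genes. Tapbp, the tapasin that bridges TAP and class I, stood at 8.43, 9.68 and 10.5 FPKM in Control 2, 4 and 5, at 27.6, 57.0 and 43.5 in HN 4, 8 and 12, and at 9.41, 10.3 and 20.2 in PEC 1, 2 and 3. It rose by 1.61 and then fell by 1.45 in PEC against HN mice (edgeR adjusted p = 0.00732), with every PEC value below every HN value. Erap1, which trims peptides, rose by 0.78 and fell by 0.83, but with length offsets these were 0.53 and -0.51 and neither was called. With TMM scaling kept they were 0.72, which was called, and -0.53, which was not. With GC offsets the fall was -0.45 and not called. Calr, Canx and Pdia3, general chaperones of the endoplasmic reticulum, were not called in HN against Control mice.

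The 5 immunoproteasome genes, Psmb8 counted in, were all higher in HN against Control mice, beside 18.3% of all tested genes. Psmb10 rose by 1.83, Psmb9 by 1.75, Psme2 by 0.95 and Psme1 by 0.79. Psme1 was not called without HN 8 (0.73) or with GC offsets (0.52). In PEC against HN mice 0 of the 5 were called, beside 14.2% of all tested genes higher and 15.7% lower. Without PEC 3, 3 of the 5 were lower and 0 higher, beside 15.3% and 13.6% of all tested genes. Without HN 8, 1 was higher, in a fit whose share of all tested genes is not given here. Of 14 subunits of the constitutive proteasome 0 were higher and 2 lower (Psmb7 at -0.72 and Psma4 at -0.60), beside 18.3% and 15.7% of all tested genes. Their median log2 fold change was -0.33. The lower ones were 4 with length offsets and 3 with GC offsets, beside 4650 and 4473 of all tested genes. Of the 14, PEC against HN mice had 0 higher and 0 lower by edgeR with TMM scaling, beside 14.2% and 15.7% of all tested genes, with a median of 0.16. With GC offsets 2 of the 14 were higher, and with length offsets 1 was lower, in fits whose shares of all tested genes are not given here. Among the class I transcription factors Nlrc5, the class I counterpart of Ciita, rose by 2.10 and Irf1 by 1.35 in HN mice.

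The interferon gamma axis had 6 of 9 tested genes higher in HN than in Control mice, beside 18.3% of all tested genes. Ifng itself was at or near 0, with at most 0.17 FPKM in any library, and did not pass the filter. Cxcl10 rose by 3.06, Socs1 by 2.70 and Cxcl9 by 2.64, and the receptor chains Ifngr1 and Ifngr2 by 1.53 and 1.46. In PEC against HN mice 5 of the 9 were lower and 0 higher, beside 15.7% and 14.2% of all tested genes, Socs1 at -2.02, Jak2 at -1.68, Ifngr1 at -0.91, Ifngr2 at -0.69 and Jak1 at -0.60. Jak1 was not called without PEC 3 (-0.55) or with length offsets (-0.28), while the other 4 named were called lower in both. Of 5 costimulatory genes 4 were higher in HN mice, beside the same 18.3% of all tested genes, with Cd86 at 3.27 the most. In PEC against HN mice 1 of the 5 was lower (Cd86 at -0.88), beside 15.7% of all tested genes. Without PEC 3 the lower ones were 2, beside 15.3% of all tested genes.

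Most markers of macrophages and dendritic cells, which carry class II, were higher in HN than in Control mice. Macrophage markers summed to 51.4, 62.4 and 52.9 FPKM in Control 2, 4 and 5, to 642, 756 and 599 in HN 4, 8 and 12, and to 221, 247 and 345 in PEC 1, 2 and 3, with the complement genes C1qa (in HN mice and PEC 3) and C1qb (in Control 2 and 4 and PEC 1 and 2) the most abundant. Of the 10, 8 were higher and 1 lower (Mertk) in HN against Control mice, beside 18.3% and 15.7% of all tested genes. Lower in PEC against HN mice were 7 with PEC 3 and 7 without it, beside 15.7% and 15.3% of all tested genes. Dendritic cell markers summed to 6.31, 6.41 and 4.67 FPKM in Control, to 22.6, 26.3 and 22.7 in HN and to 20.9, 23.2 and 19.6 in PEC mice, with Irf8 the most abundant on average over Control and HN mice and Itgax over PEC mice. Of these 9, 6 were higher in HN against Control mice, beside 18.3% of all tested genes. By edgeR with TMM scaling 0 were called in PEC against HN mice, where 14.2% of all tested genes were higher and 15.7% lower. Without PEC 3, 1 of the 9 was called higher and 1 lower, beside 13.6% and 15.3% of all tested genes. With GC offsets 2 were higher and 1 lower, and with length offsets 1 was lower. The shares of all tested genes in these fits are not given here, so nothing is concluded from the counts. In Itgax, the CD11c of dendritic cells, FPKM was 0.28, 0.34 and 0.31 in the Control group, 5.48, 8.19 and 5.62 in the HN group and 3.90, 5.43 and 5.97 in the PEC group. PEC and HN mice overlapped in Itgax, while Adgre1, the F4/80 of macrophages, stood at 25.6, 25.9 and 22.8 in HN and at 3.37, 5.23 and 6.69 in PEC mice without overlap. On FPKM 39.5% of all tested genes had every PEC value below every HN value. The dendritic cell markers Irf8, Zbtb46 and Ccr7 had this order as well, while the other dendritic cell markers overlapped. Among the macrophage markers Cx3cr1 alone overlapped.

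T cell markers summed to 1.36, 2.28 and 1.93 FPKM in Control 2, 4 and 5, to 11, 22 and 14.2 in HN 4, 8 and 12, and to 6.54, 9.07 and 9.14 in PEC 1, 2 and 3, with Lck the most abundant in every library but Control 5. All 8 were higher in HN against Control mice (7 without HN 8), beside 18.3% of all tested genes (16.3% without HN 8). In PEC against HN mice 2 were lower, beside 15.7% of all tested genes (Cd3d at -0.82 and Cd4 at -0.65). Without HN 8 neither was called (-0.65 and -0.50), and without PEC 3 Cd3d was not (-0.79). B cell markers summed to 0.49, 0.46 and 0.65 FPKM in Control, to 2.56, 3.56 and 3.06 in HN and to 2.25, 1.87 and 1.96 in PEC mice. Of the 7, 2 were higher in HN mice, beside 18.3% of all tested genes (Cd79b, the most abundant, and Cd79a, the latter not called without HN 8 at 1.81). The markers Ms4a1 and Pax5 were near 0, at no more than 0.09 FPKM in any library. Endothelial markers summed to 38.7, 43.1 and 42.5 FPKM in Control, to 52.5, 54.8 and 53.7 in HN and to 38.4, 42.7 and 56.8 in PEC mice, with Pecam1 (Control), Cdh5 (HN) and Emcn (PEC) the most abundant on average. Of the 5, 1 was lower in HN mice (Kdr), beside 15.7% of all tested genes. In PEC against HN mice 1 was higher (Emcn at 0.60), beside 14.2% of all tested genes. Without PEC 3 Emcn was at 0.40 and not called, while Kdr was called lower at -0.70, and without HN 8 Emcn was at 0.57 and not called. Of the 8 kidney epithelial markers 5 were lower in HN against Control mice, beside 15.7% of all tested genes, Slc34a1 of the proximal tubule the most at -2.29. In PEC against HN mice 3 were higher, beside 14.2% of all tested genes. Whether these shifts in marker levels carry those of the 10 genes was not tested.

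**Figure D4:**
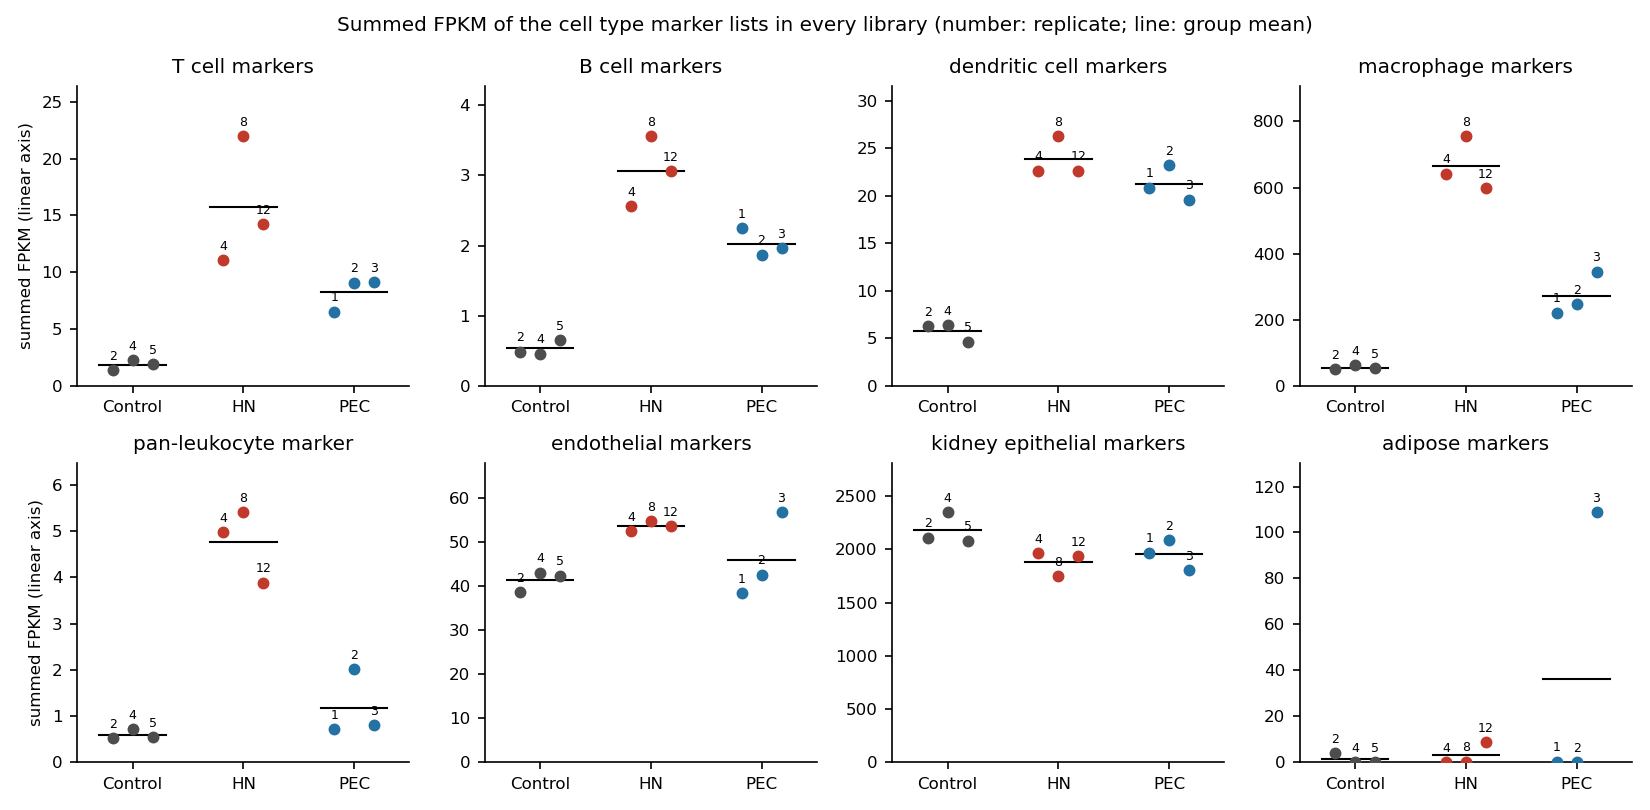
Summed FPKM of each list of cell type markers in every library on linear axes, with a panel per list, a point per mouse marked with its replicate number and a line at the group mean. Macrophage markers are lower in every PEC than in every HN mouse, dendritic cell markers overlap between PEC and HN mice, and adipose markers are highest in PEC 3, followed by HN 12 and Control 2.

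The genes with the profile most like that of H2-Ab1 and of B2m were sought among 14750 genes outside all lists, by the root mean square difference of log2 counts (scaled to library size by TMM) centred on each gene's mean, over 9 libraries. Nearest to H2-Ab1 were Slamf9 (0.23), Cd72 (0.24), Rgs10 (0.24), Cd52 (0.26) and Lilr4b (0.27). Slamf9 stood at 1.55, 2.11 and 1.72 FPKM in Control 2, 4 and 5, at 11.5, 15.7 and 14.3 in HN 4, 8 and 12, and at 10.4, 12.5 and 18.0 in PEC 1, 2 and 3. Nearest to B2m were Phf11d (0.28), Trim12a (0.28), Mlkl (0.28), Parp9 (0.28) and Trim34a (0.29). Parp9 stood at 2.77, 3.23 and 3.09 FPKM in Control, at 8.10, 18.2 and 12.5 in HN and at 4.95, 6.41 and 15.5 in PEC mice.

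**Figure D5:**
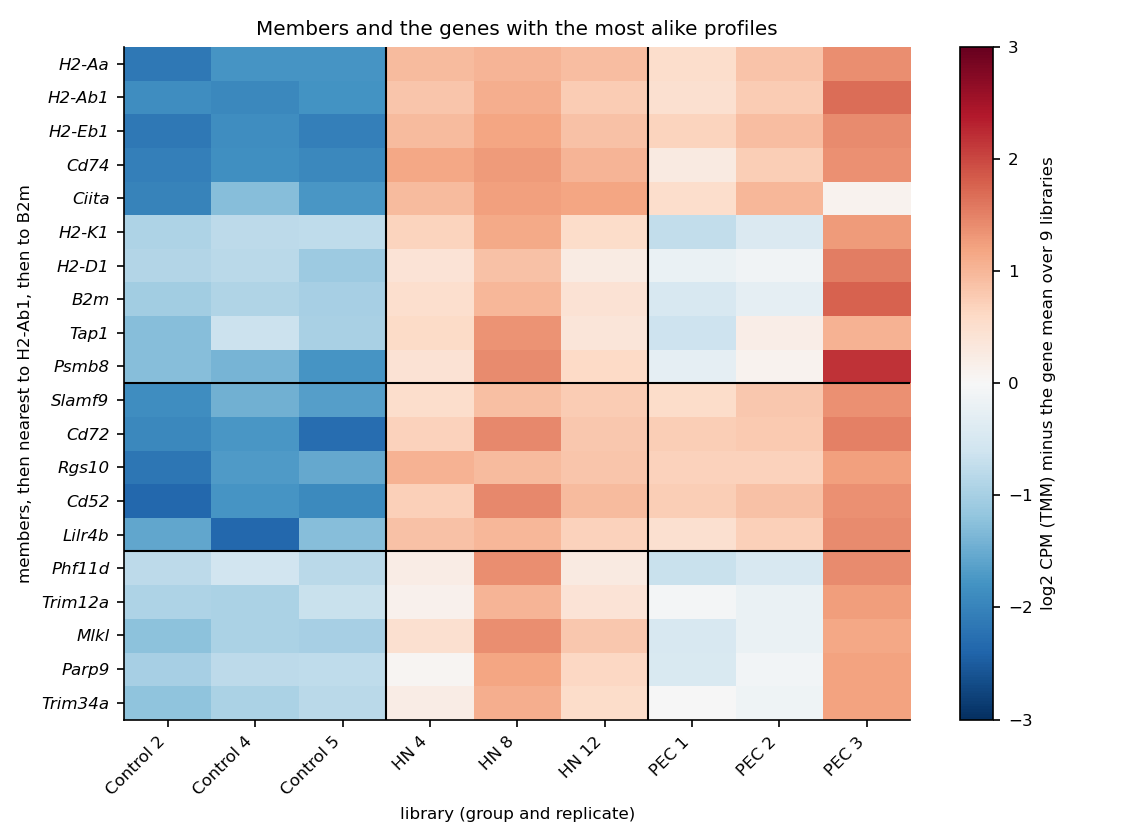
Colours give log2 counts scaled to library size (TMM) minus the mean of each gene over the 9 libraries, for the 10 genes, the 5 nearest to H2-Ab1 and the 5 nearest to B2m. Control libraries are low throughout, and PEC 1 and PEC 2 are below every HN library in 7 of the 10 genes (34.7% of all tested genes). PEC 3 is the highest PEC library in all of the 10 but Ciita (35.3% of all tested genes).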

How the data were processed

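Kidney poly(A) RNA-seq of 9 mice was analysed from the deposited table, which holds whole-number counts and FPKM values, computed by the authors from gene length and library size. The submitters' processing notes name Bowtie 0.12.2 and the builds mm8 and mm9, whereas the coordinates of the table equal those of GENCODE release 21 on GRCm38 for 51991 of 55144 genes and for 8 of the 10 genes described. The counting program and its use of strand and of reads that match several genes are not given in the sources used here. Set against counting error alone, the spread of replicates had a chi-square per degree of 57.4 to 194 over 9 pairs. Replicates were separate mice, which differ by more than counting error, so no conclusion is drawn from it.

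The deposited counts were tested with edgeR 4.0.16 in R 4.3.3 (glmQLFit and glmQLFTest, TMM, group means, 9 libraries in a single fit with 6 residual degrees of freedom), on genes with a mean count of at least 10. Genes were called at a fold of 1.5 or more and an adjusted p (Benjamini-Hochberg) of 0.05 or less. Alternatives included DESeq2 1.42.0, limma 3.58.1 on log2(FPKM + 1), other scalings, filters and thresholds, offsets from splines with 5 degrees of freedom in gene length or GC content, and each library left out. The fit was tested on simulated data with 200 genes changed 3-fold in HN against Control. The median fold was recovered, but many changed genes with low counts or a wide spread were not called. Called were 113 of the 200, and 113 of the 142 with a mean count of at least 100, so a gene not called may have changed. The criterion for passing this test was changed after the first one had not been met. Ratios used exact permutation in scipy 1.17.1. Named were the 10 genes, listed genes that are abundant or strongly changed, and the 5 nearest profiles to H2-Ab1 and B2m among genes with a mean count of at least 100. A few listed genes (Adgre1, Itgax, Canx, Pdia3, H2-T22, H2-T23, Nfya, Creb1, Cd79a and Fcgrt among them) were named after their values were seen. The genes and lists were chosen with earlier results of these data known. Some listed genes are counted within their lists and are not reported singly here.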

Additional observations from a re-analysis of the deposited data

How the results depend on the processing

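In HN against Control, 226 of 240 values of the 10 genes over 24 settings kept direction and call and 14 lost the call, all with a library left out, while the count of called genes among the 10 was 7 to 10. In PEC against Control, 222 of 240 kept both, 13 lost and 5 gained the call, and the count was 6 to 10. In PEC against HN, 190 of 240 kept both, 7 gained the call with the same sign and 43 changed sign, 4 of them called, and the count of 0 became 1 with total-count library sizes, 1 with GC offsets, 1 with GC offsets and TMM scaling kept, 2 without HN 8 and PEC 3, and 0 to 5 with each library left out. The sign changes were of values from -0.01 to 0.21 by edgeR with TMM scaling, and none was called after the change except without PEC 3, alone or with HN 8. With limma they were -0.16 for H2-Ab1, -0.23 for H2-Eb1, -0.34 for H2-D1, -0.54 for B2m and -0.33 for Psmb8. With total-count library sizes they were -0.052 for H2-Ab1, -0.18 for H2-Eb1, -0.11 for H2-D1, -0.15 for B2m and -0.003 for Psmb8. H2-Aa turned to 0.10 with upper-quartile factors, and H2-Eb1 to -0.017 with no filter. With length offsets, H2-Aa was at 0.049, H2-Eb1 at -0.13 and B2m at -0.32, and with TMM scaling kept at 0.022, -0.15 and -0.34. With GC offsets, H2-Aa was at 0.035, H2-Eb1 at -0.14 and H2-D1 at -0.10, and with TMM scaling kept H2-Aa at 0.006, H2-Ab1 at -0.023, H2-Eb1 at -0.16 and H2-D1 at -0.13. Without HN 8 and PEC 3, H2-Ab1 was at -0.15, H2-Eb1 at -0.09, H2-D1 at -0.46, B2m at -0.82 and Psmb8 at -0.56. With each library left out, the ranges were -0.25 to 0.17 for H2-Aa, -0.26 to 0.38 for H2-Ab1, -0.19 to 0.18 for H2-Eb1, -0.68 to 0.39 for H2-D1, -1.03 to 0.42 for B2m and -0.93 to 0.59 for Psmb8. The other presentation genes called in PEC against HN, 7 of 49, were 3 at a fold of at least 2 and 6 to 15 with each library left out. Over all genes, the 6086 calls in PEC against HN became 3530 at a fold of at least 2, and the 7686 in PEC against Control became 5066 with limma and 4999 at a fold of at least 2. A stricter fold gives fewer calls by construction, and the cause of the other changes was not tested. The split of higher and lower calls differed between settings. In HN against Control it was 3721 and 3198, against 7653 and 1291 with total-count sizes, 4649 and 1024 with limma, 3075 and 4650 with length offsets and 3099 and 4473 with GC offsets. In PEC against HN it was 2895 and 3191, against 1925 and 4609, 1356 and 3390 with limma and 3522 and 2595 with upper-quartile factors. In PEC against Control it was 4006 and 3680, against 6318 and 1942, 3581 and 1485 with limma, 4958 and 2758 with upper-quartile factors, 3337 and 4482 with length offsets and 3085 and 4702 with GC offsets. The median of all genes was 0.35, -0.19 and 0.19 with limma in these 3 comparisons, 0.20 with upper-quartile factors in PEC against Control, -0.22 and -0.11 with length offsets and -0.21 and -0.16 with GC offsets against Control. The joint omission of HN 8 and PEC 3 and the offsets with TMM scaling kept were added after the data had been seen. No paired analysis was made, because the groups hold separate mice and no pairing between them is described.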
